A study of Orestias ascotanensis with 42 samples.

Results

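The gill libraries of Orestias ascotanensis, a killifish of a high Andean salt pan, were compared between a summer and a winter collection. All libraries labelled gills were taken, 14 of the 42 in the series, of which 7 came from summer fish and 7 from winter fish. The other libraries are skin and muscle of the same 14 fish, and they enter only where a seasonal change of gills was set against that of another tissue. The summer group holds gills of 7 adult wild fish netted in January, and the winter group gills of 7 other adult wild fish netted in July, both at 3740 m. The labels name no treatment beyond the date and no pools, and sex and age in years are not stated there. Tissue went into RNAlater on site, small RNA was cut from gels, and read 1 of TruSeq small RNA libraries was counted. The season follows the treatment label, since the word summer stands in all titles, with the code N2 for the summer fish and N1 for the winter fish. Season cannot be told apart from collection date, and in whole gills fewer cells of a type cannot be told apart from less RNA per cell.

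MicroRNAs (miRNAs) are short RNAs that pair with messenger RNAs through bases near their 5′ end and lower the output of those messengers. Many belong to families of near-identical members, and a precursor can release a 5p and a 3p arm. The fish gill exchanges gas, ions and nitrogenous waste across a thin epithelium over blood vessels and cartilage, and it holds many lymphocytes and red cells. In zebrafish the miR-200 family acts in ion-transporting cells, and the linked miR-462 and miR-731 of fishes respond to low oxygen and to interferon.

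Counting depth differed widely. Summed over miRNA names, the count was 598084 in the lowest summer library, fish 4, with a median of 20423114 and a highest of 27067509 in summer. In winter it was 1196380 in the lowest library, fish 2, with a median of 4947715 and a highest of 12778743. Since 1 read can stand under several names, these sums exceed the reads behind them. Counted with 1 name for each set of names with matching counts, the totals were 195888 to 10841347 in summer and 485207 to 5161348 in winter. The log2 totals of summer minus winter differed by 1.205 (two-sided exact permutation p = 0.186, n = 7 per season). Summer fish 4 also stood apart in composition. Its scaling factor was 0.561, against 0.739 to 1.35 in the other 13 libraries, and it had 241 names with at least 10 reads, against 414 to 517 in the other summer libraries. Where leaving it out changed a call or the sign of a list median, the value without it is given.

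The tissue label was checked against marker miRNAs, with values here as plain CPM of the summed count. miR-200a, an epithelial miRNA, had a median of 10172 CPM in summer gills and 12219 in winter gills, against 1458 and 1035 in summer and winter skin and 11.2 and 22.1 in summer and winter muscle. miR-150, a lymphocyte miRNA of mammals, had medians of 2047 and 2232 CPM in summer and winter gills and at most 18.7 in any skin or muscle library. miR-133a, of striated muscle, was at 288 and 385 CPM in summer and winter gills, against 2772 and 3932 in summer and winter muscle. In summer and winter skin it was at 2982 and 2317. miR-200a and miR-150 were thus higher in gills than in skin and muscle, and miR-133a was lower. miR-133a did not separate skin from muscle, and no gill library had the marker levels of muscle.

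**Figure D1:**
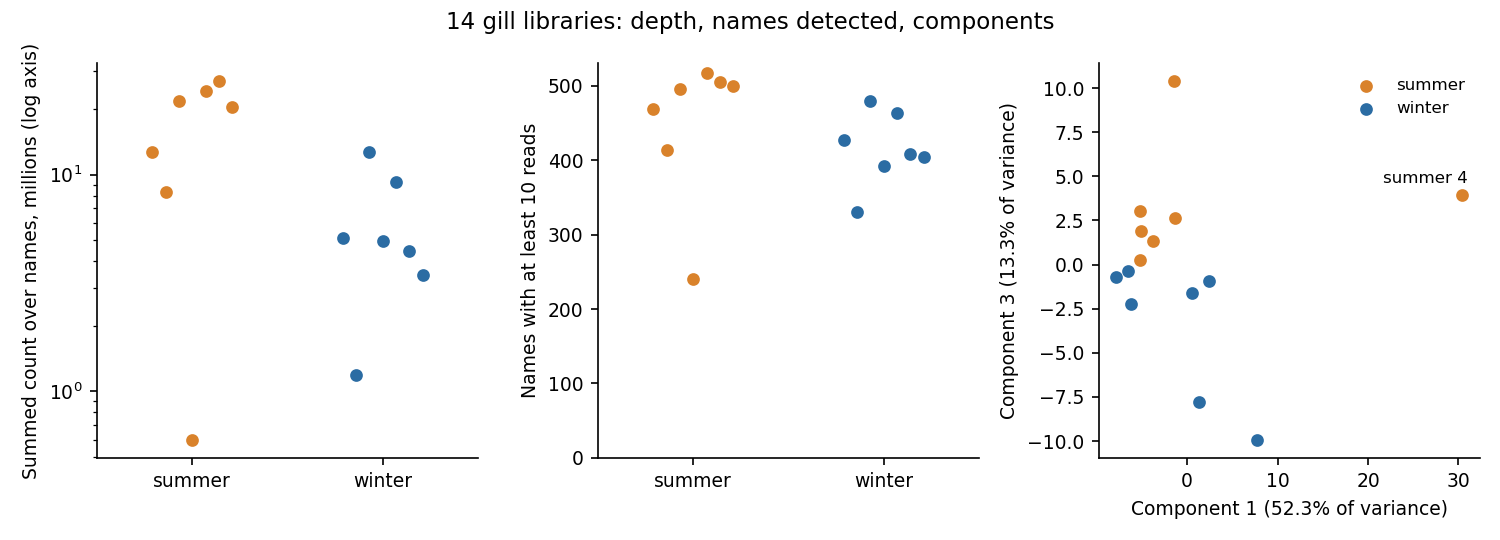
The first panel plots the summed count over miRNA names on a log axis, the second how many names had 10 reads or more, and the third the scores of each gill library on principal components 1 and 3, with summer in orange and winter in blue and 1 point per fish. Summer fish 4 has the lowest total (598084) and the fewest names (241) and lies at 30.4 on component 1, while component 3 runs from 0.239 to 10.4 in summer and from -9.94 to -0.339 in winter.

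The comparison asks which miRNAs of gills differ between the collections. For most the difference was small. Of 653 names with a read in gills, 460 in 269 sets of matching counts had enough reads to be tested. By the quasi-likelihood test of edgeR, with p-values adjusted by the Benjamini-Hochberg method, 1 name was lower in summer and 0 were higher, which is 0.217% of those tested, and 29 names in 18 sets, 6.3%, had an unadjusted p under 0.05. The median absolute log2 difference was 0.206, and 97.4% of names differed by less than 1 on the log2 scale. The 95% interval of the difference lay wholly within 1 log2 unit for 282 names, 61.3% of those tested, so for these a seasonal difference of 2-fold or more lies outside the interval. Its median half-width was 0.646. For 163 names the interval held 0 and also reached 1 log2 unit, so for them neither no difference nor a 2-fold difference was excluded. For 2 names, miR-26d-5p and miR-31-5p, the interval lay wholly beyond 1 unit. Without a filter on low counts 6 of 653 names passed, 4 higher and 2 lower in summer. The higher ones include miR-20b and miR-20b-5p, whose gill counts were nearly the same. Among the names tested with the filter, normalised levels of both seasons did not overlap for 11 names, 2.39% of them, with 1 (0.217%) higher and 10 (2.17%) lower in summer. The lower ones include the 4 names of the miR-24a-3p set and the 3 of the miR-24a set, so they are fewer than 10 separate results.

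**Figure D2:**
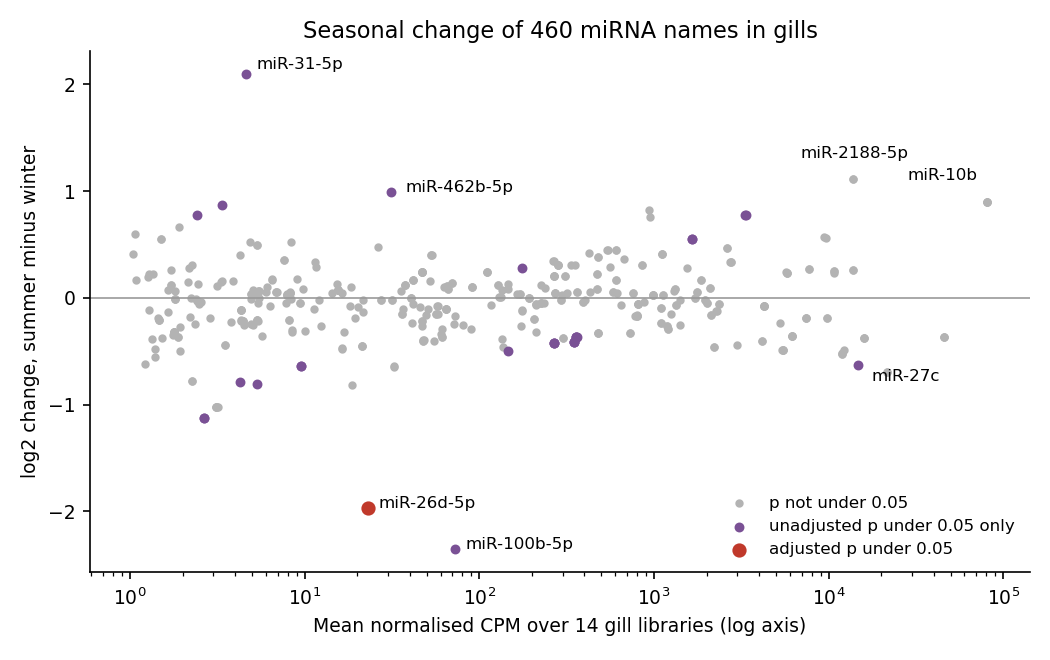
Each point is 1 of the 460 miRNA names tested in gills. The x axis is its mean normalised CPM over 14 libraries on a log axis and the y axis the log2 change, summer minus winter, with purple for names with an unadjusted p under 0.05 and red for the single name past the adjusted threshold. That name is miR-26d-5p at -1.97, and the 10 most abundant sets of matching counts, each by 1 name, lie between -0.70 and 1.11.

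The single name called in the comparison was miR-26d-5p, a minor member of the miR-26 family, which in mammals acts on cell growth and on insulin and lipid metabolism. Its normalised CPM was 7.01, 7.38 and 23.8 in summer (lowest, median and highest of 7) and 24.3, 31.5 and 67.3 in winter. All 7 summer libraries lay below all 7 winter libraries. The highest summer value is that of the shallow fish 4, where it rests on 8 reads, and the other 6 lay between 7.01 and 11.02. miR-26d-5p was 3.91-fold lower in summer (log2 change -1.97 ± 0.32 SE, n = 7 per season, adjusted p = 0.00815 by edgeR). Without summer fish 4 the change was -2.12 (edgeR adjusted p = 0.000259). The call was lost when summer fish 3, 5 or 7 was left out (edgeR adjusted p = 0.0597, 0.0841 and 0.0819) and when all libraries were thinned to the lowest total (0.0703), with log2 changes of -1.84 to -1.99 in these 4 cases. The most abundant name of the family, miR-26, had medians of 6669 normalised CPM in summer and 8091 in winter, and its change of -0.19 ± 0.15 did not pass (edgeR adjusted p = 0.832). Per read of miR-26, miR-26d-5p was counted at a median of 0.113% in summer (0.103 to 0.277%) and 0.369% in winter (0.301 to 0.740%). The separate name miR-26d, of similar abundance, pointed the other way without passing. Without summer fish 4 it was counted at 0.119 to 0.438% of miR-26 in summer and 0.025 to 0.323% in winter. Its log2 ratio then differed by 0.86 in summer minus winter (exact permutation p = 0.223, adjusted 0.752).

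A larger difference with a single exception among the fish was seen for miR-100b-5p, a minor relative of miR-100, whose family restrains growth signalling in human cells. It had 2.98, 7.55 and 120 normalised CPM in summer and 93.0, 114 and 155 in winter. In 6 summer libraries the level was 9.31 or lower, and summer fish 2 at 120 lay within the winter range. The log2 change was -2.35 ± 0.68 and did not pass (edgeR adjusted p = 0.251). With the batch number as a block it was -3.58 (edgeR adjusted p = 0.00926), and without summer fish 2 it was -3.996 (9.65e-09). Summer fish 2 is the exception itself, so the fit without it is no separate support. With any other single library left out miR-100b-5p did not pass. DESeq2 gave -2.87 (adjusted p = 7.82e-06) and limma voom with quality weights -3.92 (5.48e-08) on all 14 libraries. miR-100 itself, at medians of 11229 and 10556 normalised CPM in summer and winter, differed by 0.25 ± 0.17, which did not pass (edgeR adjusted p = 0.832).

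In the opposite direction, miR-31-5p, in mammals a miRNA of epithelial growth and repair, had 0, 8.78 and 11.3 normalised CPM in summer and 0.675, 1.39 and 5.20 in winter. The 6 summer libraries other than fish 4 had 5.11 or more, and 6 winter libraries had 2.49 or less. Summer fish 4 had 0 reads, where up to 3 reads, the upper limit for a zero count, would stand for 8.94 normalised CPM, so a summer-like level was not detectable there. The log2 change of 2.09 ± 0.46 did not pass (edgeR adjusted p = 0.0785). It passed without summer fish 4 (2.19, edgeR adjusted p = 0.0167) and without winter fish 4 (2.64, 0.00130). It did not pass with the batch number as a block (2.39, edgeR adjusted p = 0.154), and the adjusted p reached 0.315 when summer fish 3 was left out. DESeq2 (2.14, adjusted p = 0.000199) and limma voom with quality weights (2.71, 2.07e-05) called it on all 14 libraries. By edgeR it passed with 1 name per set (adjusted p = 0.0378) and with all 42 libraries (0.00274). It did not with RLE scaling (edgeR adjusted p = 0.0595) or scaling by totals alone (0.0755). The other name miR-31 had medians of 404 and 357 normalised CPM in summer and winter and a change of -0.02 ± 0.22 (edgeR adjusted p = 0.998).

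miR-20b, named here after its values were seen, did not pass the filter on low counts, since too few libraries held enough reads. It belongs to a family that promotes cell division in mammals. It had 43, 40, 148, 0, 157, 184 and 119 reads in summer fish 1 to 7, and 1, 0, 9, 0, 2, 0 and 1 reads in winter fish 1 to 7, or 691 and 13 reads in all. Every summer library except fish 4, in which it had 0 reads, exceeded every winter library. With no filter the log2 change was 4.39 ± 0.50 (edgeR adjusted p = 7.63e-05), and 6 of 653 names, 0.919%, passed in that fit. Without summer fish 4 it passed the filter, through the other summer libraries alone, and the test (4.48, edgeR adjusted p = 2.59e-05). Since the name was picked after its values were seen and that library had 0 reads, this is no separate support. In that fit 4 names passed, the others being miR-20b-5p, miR-26d-5p and miR-31-5p. The abundant relative of miR-20b, miR-20a, had medians of 137 and 72.1 normalised CPM in summer and winter. Its ranges overlapped, with a change of 0.24 ± 0.42 (edgeR adjusted p = 0.998). Besides miR-26d-5p and miR-31-5p, the other names past the threshold with no filter were miR-20b-5p, miR-200a-5p (2.83 ± 0.44, edgeR adjusted p = 0.00152, at most 66 reads in a library) and miR-100a-2-3p (-3.96 ± 0.85, 0.0242, at most 13 reads). miR-100a-2-3p had a read in 2 of 7 summer libraries and in 7 of 7 winter libraries. The names miR-20b and miR-20b-5p had the same lowest, median and highest reads in summer gills (0, 119 and 184). In winter gills their highest were 9 and 10 reads, so their calls are not separate results.

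**Figure D3:**
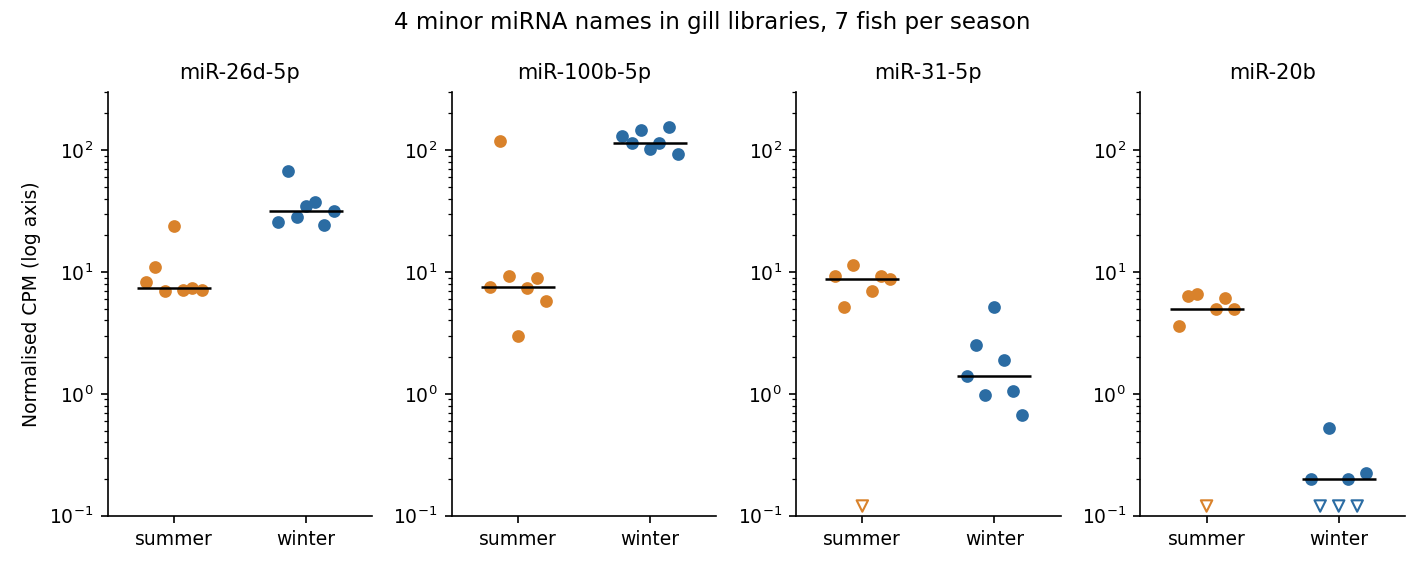
Normalised CPM on a log axis of 4 minor names in 7 summer fish (orange, left) and 7 winter fish (blue, right), with black lines at the medians and open triangles for libraries with 0 reads. miR-26d-5p does not overlap between seasons, miR-100b-5p overlaps through summer fish 2 at 120, and summer fish 4 has 0 reads of miR-31-5p and miR-20b.

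These names are each a small fraction of a more abundant relative, and a ratio within a library does not depend on the scaling between libraries. The log2 ratio of each name to the most abundant name of its number was therefore compared, a test added after the data were seen. Of 158 ratios 6 passed, 3.8% (two-sided exact permutation test over 3432 splits, Benjamini-Hochberg adjusted), with 1 higher and 5 lower in summer, and 14 had an unadjusted p under 0.05. The 1 higher, miR-31-5p, enters this count with a value for summer fish 4 that is set by the 0.5 reads added. miR-100b-5p was counted at 0.0761% of miR-100 in summer (0.0281 to 0.799%) and 1.24% in winter (0.898 to 1.71%). miR-31-5p was counted at 2.02% of miR-31 in summer (0 to 2.83%) and 0.389% in winter (0.205 to 0.779%). For miR-100b-5p and miR-26d-5p the log2 ratios did not overlap between seasons (exact permutation p = 0.000583, the smallest that 3432 splits can give, adjusted 0.0230). For miR-31-5p the ratio in summer fish 4, with 0 reads, is set by the 0.5 reads added to each count, so its test was taken without that library. The other 6 summer libraries then had 1.01 to 2.83% and the winter ones 0.205 to 0.779% (exact permutation p = 0.000583, the smallest that 1716 splits can give, adjusted 0.0230). The other 3 were miR-455-2-5p (log2 ratio -0.39 in summer minus winter, exact adjusted p = 0.0230), miR-214-5p (-0.79, 0.0368) and miR-455b (-0.40, 0.0460). miR-455 and miR-214 are known from cartilage and from muscle and bone development in vertebrates. Without summer fish 4, 6 ratios passed, 4 of them among the 6 above. The ratios of miR-214-5p and miR-455b did not pass (exact permutation adjusted p = 0.0526 and 0.0691). That of miR-462b-5p to miR-462 passed as higher in summer (0.62, 0.0460), and that of miR-130b-3p to miR-130a-3p as lower (-0.89, 0.0368). miR-214-5p stood at 35.2% of miR-214 in summer and 47.1% in winter. Reads of near-identical names can be shared or split in the counting, so miR-26d-5p, miR-100b-5p, miR-31-5p and miR-20b are uncertain as separate molecules, and whether the counting bears on their differences was not tested.

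**Figure D4:**
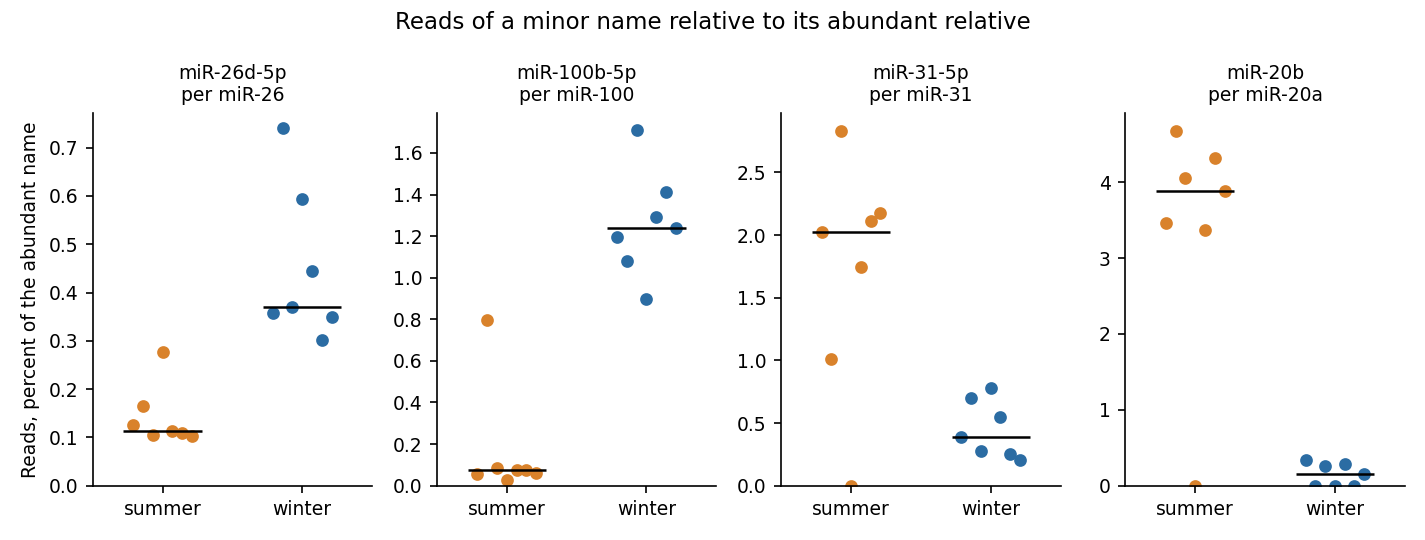
Reads of 4 minor names in percent of the reads of an abundant relative in the same library, on linear axes from 0, for 7 summer fish (orange, left) and 7 winter fish (blue, right), with black lines at the medians. The median of miR-100b-5p is 0.0761% in summer and 1.24% in winter, and that of miR-31-5p 2.02% in summer and 0.389% in winter.

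The most abundant miRNAs showed no seasonal change past the threshold. Shares here are of the total with 1 name per set, as the mean of 14 libraries. miR-10b, encoded in a Hox gene cluster, held 19.0% of gill reads. It had 37772, 71445 and 268961 normalised CPM in summer and 31679, 46056 and 106885 in winter (lowest, median and highest), and its change of 0.90 ± 0.46 did not pass (edgeR adjusted p = 0.568). Without summer fish 4 it was 0.49. miR-181a-5p, which acts in lymphocyte development in mice, held 11.5% and differed by -0.36 ± 0.36, and miR-143-3p, of smooth muscle, held 5.67% and differed by -0.70 ± 0.35. miR-21, a stress-responsive miRNA, held 4.09% (-0.37 ± 0.21), let-7a, of a family that promotes differentiation, 3.52% (0.26 ± 0.25, and 0.04 without summer fish 4) and miR-205, of stratified epithelia, 3.12% (-0.52 ± 0.29). None of these passed. miR-2188-5p held 3.50% and had the widest spread among them. It had 1838, 15288 and 60734 normalised CPM in summer and 2197, 3902 and 30453 in winter, and both groups covered most of the same range (1.11 ± 0.72, edgeR adjusted p = 0.832).

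The miR-23, miR-24 and miR-27 cluster, whose members are transcribed together and act on blood vessels and lipid metabolism in mammals, lay mostly below 0. Of 10 members tested, in 8 sets of matching counts, 0 passed. In summer minus winter 9 had values below 0, against 249 of all 460 names. The median of the 10 members was -0.37, beside -0.02 over all 460 names. Of the members, 5 names in 3 sets had an unadjusted p under 0.05 by edgeR, beside 6.3% of all names. miR-24a had 170, 241 and 255 normalised CPM in summer and 287, 306 and 329 in winter, with no overlap, and its change of -0.43 ± 0.12 did not pass in edgeR (adjusted p = 0.251). miR-27b had 3703, 11890 and 12958 in summer and 13514, 13940 and 16862 in winter, also without overlap (-0.49 ± 0.23, edgeR adjusted p = 0.568). miR-24c followed the same order, with 140 as its highest summer and 148 as its lowest winter value (-0.50 ± 0.15, 0.318). miR-27c, the most abundant member at 3.82% of reads, overlapped between seasons (-0.63 ± 0.20, 0.387). Among the miR-23 members, miR-23b-3p was at 0.06, miR-23a at -0.02 and miR-23c at -0.55 ± 0.38. DESeq2 called miR-24a and its 2 matching names, and limma voom called 7 miR-24 names in 2 sets. miR-214-3p was the single name whose summer libraries all exceeded the winter ones (179 to 230 normalised CPM in summer and 125 to 175 in winter, 0.28 ± 0.13, edgeR adjusted p = 0.568).

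The names of lowest p with a higher level in summer, apart from miR-31-5p, were miR-99, miR-462b-5p, let-7e and miR-106b-5p, and none passed. miR-99, of the miR-100 family, had 1292, 1844 and 2580 normalised CPM in summer and 1164, 1335 and 1700 in winter (0.55 ± 0.18, edgeR adjusted p = 0.387). miR-462b-5p had 20.6, 36.4 and 86.4 in summer and 11.5, 14.2 and 33.04 in winter (1.00 ± 0.34, 0.449). let-7e differed by 0.78 ± 0.33 and, without summer fish 4, by 0.41. miR-106b-5p, of a cell division cluster, differed by 0.87 ± 0.38 and had at most 6.23 normalised CPM. The seasons overlapped for all 4.

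Among the lists of miRNAs by tissue or process, which were chosen with earlier results of these data known, 1 name passed, miR-26d-5p in the lipid and insulin list. There 1 of 15 names was called lower and 0 higher, against 0.217% of all names, with a median of -0.01 (0.05 without summer fish 4). The most abundant member was miR-27c, and miR-33a-5p, of cholesterol metabolism, was at 0.05 and miR-103, of insulin sensitivity in mice, at 0.09. In the epithelial list 0 of 13 were called (edgeR, 0 at an unadjusted p under 0.05), with a median of 0.12 that was -0.06 with scaling by totals alone and -0.04 without summer fish 4. miR-200b and miR-200c stood at 0.41 and 0.42 and miR-141 at -0.19. In the white blood cell list 0 of 12 names, in 7 sets of matching counts, were called. Of these names 11 had values below 0, against 249 of all 460 names, with a list median of -0.30. miR-146a-5p, which dampens innate immune signalling in mammals, was at -0.49 ± 0.23, miR-155 at -0.07 and miR-150 at 0.09. In the red blood cell list 0 of 3 were called. Its median was 0.37, and -0.03 without summer fish 4. miR-451 was at 0.06, and miR-144 was at 0.37 and at -0.04 without that library.

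In the hypoxia list 0 of 5 names were called, with a median of 0.56, which was 0.11 without summer fish 4. miR-462 was at 0.56 ± 0.42 (0.11 without that library), its cluster partner miR-731 at -0.29 ± 0.28, and miR-210, the hypoxia-induced miRNA of mammals, at -0.29 ± 0.23. In the osmotic response list 0 of 14 were called and the median was 0.14 (-0.05 with totals alone), with the miR-30 members between 0.00 and 0.28. In the let-7 and miR-125 list, which also holds the miR-99 and miR-100 names, 0 of 19 were called. The median was 0.26 (0.03 without summer fish 4, and 0.08 with totals alone). In this list 4 names in 3 sets had an unadjusted p under 0.05 by edgeR, beside 6.3% of all names. They were miR-99 and miR-99b (0.55 each), let-7e (0.78) and, in the other direction, miR-100b-5p (-2.35). In the proliferation cluster, 0 of 18 were called, with miR-17 at 0.21, miR-19b at 0.17 and miR-92 at -0.44. All 9 miR-15 and miR-16 names, in 6 sets, had values above 0, against 211 of all 460 names, and 0 were called. miR-16 was at 0.31 ± 0.15, and the list median of 0.10 was -0.05 with totals alone.

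The remaining lists also had 0 names called by edgeR. Their medians were -0.07 over 5 endothelial names (-0.25 without summer fish 4), -0.41 over 2 smooth muscle, -0.13 over 6 skeletal muscle, -0.20 over 7 cartilage and fibroblast, 0.27 over 5 Hox cluster (-0.27 without summer fish 4) and -0.01 over 21 neural names (0.06 without that library). They were 0.04 over 3 sensory cluster names (-0.18 with totals alone and -0.56 without summer fish 4), 0.03 over 5 endocrine names (-0.19 and -0.04 in the same order), -0.33 over 2 pigment cell and -0.06 over 7 p53-linked and gut names (0.19 without summer fish 4), and 1 gonad and early embryo name, miR-430f-3p, was at 0.66. Skeletal muscle markers had medians of 251 and 350 normalised CPM in summer and winter for miR-133a and 42.2 and 45.3 for miR-206, with overlapping ranges. The liver miRNA miR-122 was at 0 in 2 winter libraries, and its highest values were 16.8 normalised CPM in summer and 27.5 in winter. The neuronal miR-124 was at most 6.35.

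**Figure D5:**
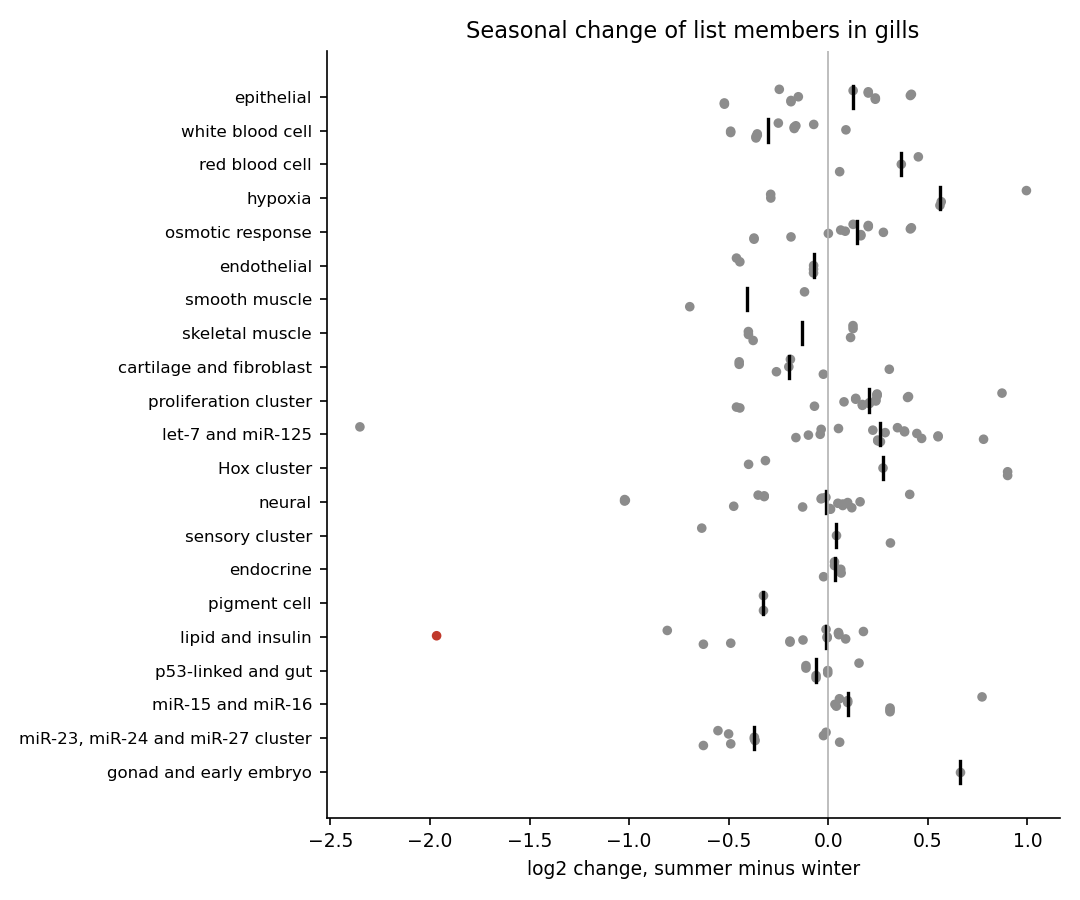
The log2 change, summer minus winter, of the tested members of 21 lists (points, 1 per name) with the median of each list as a black bar and red for the single name past the adjusted threshold, miR-26d-5p at -1.97 in the lipid and insulin list. The list medians lie between -0.41 and 0.66, and the grey point at -2.35 is miR-100b-5p.

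Whole-library measures did not pass either. The 10 most abundant names held 52.95 ± 11.8% of the summed count in summer and 46.5 ± 5.14% in winter (SD, n = 7 each, two-sided exact permutation p = 0.230). Names with at least 10 reads numbered 449 ± 97.9 in summer and 415 ± 49.0 in winter (exact p = 0.448). The effective number of names, the exponential of the Shannon entropy, was 56.2 ± 19.7 in summer and 64.9 ± 9.53 in winter (exact p = 0.317), and all 3 had an adjusted exact p of 0.448. Without summer fish 4 the names numbered 68.4 more in summer than in winter (unadjusted exact permutation p = 0.0192). The number of names turned to a difference of -13.3 with a limit of 10 CPM and -10.1 after thinning to equal totals, in place of 33.7. With 1 name per set of matching counts, the 10 most abundant held 63.6% in summer and 61.7% in winter (exact permutation p = 0.572). The effective number was then 30.1 in summer and 33.8 in winter (exact permutation p = 0.396).

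On principal components of the 269 sets, component 1 held 52.3% of the variance, and summer fish 4 lay at 30.4 with all other libraries between -7.81 and 7.76. Component 3, with 13.3%, had all summer libraries at 0.239 to 10.4 and all winter libraries at -9.94 to -0.339 (exact permutation p = 0.000583, adjusted 0.00175 over 3 components). Without summer fish 4 none of the first 3 components separated the seasons fully. Component 2, with 26.9% of the variance, then ran from -5.88 to 0.649 in summer and -3.70 to 12.5 in winter (exact permutation adjusted p = 0.0437).

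The balance between arms of a precursor was compared for 45 precursors as the log2 ratio of 5p to 3p reads. By two-sided exact permutation tests 0 passed after adjustment, 3 had an unadjusted p under 0.05, and the smallest adjusted p was 0.236. That was miR-214, with a log2 ratio of -0.83 ± 0.64 in summer and -0.05 ± 0.27 in winter (SD, n = 7 each, exact permutation p = 0.00524), lower in summer in 7 of 7 same-numbered pairs. The reads of miR-214-5p also enter its ratio to miR-214 above, so that ratio and this arm balance are not separate results.

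Whether the seasonal change of gills differed from that of skin or muscle of the same fish was tested by an interaction term fitted to 42 libraries and 525 names. Against skin, 4 names passed (edgeR, 0.762%). For miR-26d-5p the gill change minus the skin change was -1.87 ± 0.39 (edgeR adjusted p = 0.00365), with median CPM of 15.2 in summer skin and 11.3 in winter skin. In muscle miR-26d-5p had medians of 1.56 CPM in summer and 3.52 in winter. It was not among the names that differed between gills and muscle. For miR-20b the gill change minus the skin change was 4.20 ± 0.79 (0.00181), with at most 18 reads in any skin library of either season. The name miR-20b-5p, whose counts in gills and skin were nearly the same, gave 3.99 ± 0.81 (0.00327). For miR-31-5p it was -3.02 ± 0.65 (0.00519). Skin had medians of 17.3 CPM of it in summer and 0.473 in winter, so that its own change of 5.22 ± 0.51 exceeded that of gills. miR-100b-5p was also lower in summer skin (medians 3.63 and 31.5 CPM in summer and winter, -2.80 ± 0.59, edgeR adjusted p = 0.00322), and it was not among the names that differed between gills and skin.

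Against muscle, 10 names in 7 sets passed (edgeR, 1.9%), 2 higher and 8 lower. miR-20b (5.25 ± 1.13, edgeR adjusted p = 0.00794) and miR-20b-5p (4.23 ± 1.11, 0.0286) were the higher ones, but muscle had 0 to 4 reads of either name in a library, so its own change had no measurable value and the difference rests on the change of gills. The lower ones were mostly miR-99 and miR-100 names. For miR-99 the gill change minus the muscle change was -1.41 ± 0.37 (0.0286), with medians of 660 CPM in summer muscle and 227 in winter muscle and an own change of muscle of 2.05 ± 0.27. For miR-100-5p it was -1.76 ± 0.41 (0.0101), for miR-100a-5p -1.83 ± 0.41 (0.00794), for miR-99-5p -1.16 ± 0.32 (0.0422) and for miR-15e-5p -2.18 ± 0.49 (0.00794). These 5 names did not pass in gills alone. In gills miR-100-5p was counted at medians of 99.6% of miR-100 in summer and 100% in winter, and miR-100a-5p matched miR-100. The values of miR-100-5p and miR-100a-5p are thus not separate results. With fish as a block, since the tissues come from the same fish, 9 names passed against muscle, 2 higher and 7 lower, and miR-99-5p did not (edgeR adjusted p = 0.0627). Without both libraries of the lowest totals 14 passed, 6 higher and 8 lower. With scaling by totals alone 5 names passed against muscle and 4 against skin. The gill libraries serve in both interactions and were the same 14 as above.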

How the data were processed

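The deposited table of a library holds raw read counts for pairs of mature miRNA and precursor, per the file headers. A CPM column that the authors scaled to the table's total, per the file headers, was not used. The columns are those of the quantifier of miRDeep2, and no label or header names the aligner, reference release or filters. Of the tables, 41 had 3528 entries and gills winter 1 had 3599, with prefixes of 13 species, and the 3527 common entries were used. Prefixes were dropped, and each of the 1342 resulting names took its entry of most reads in that library. Names with at least 14 reads whose counts matched within 5 percent in every gill library formed a set, 352 sets among 571 names. A read can count under several names.

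The 14 gill libraries were fitted with edgeR 4.0.16 in R 4.3.3, summer minus winter. TMM scaling was used, and filterByExpr kept names by a count minimum of 10 and a total of at least 15. The quasi-likelihood F test was called at a Benjamini-Hochberg adjusted p below 0.05. Normalised CPM are the counts scaled by the TMM library sizes. The tested names held 99.99% of the summed counts. The SE is the log2 change over the square root of F. The code was tested on simulated counts. DESeq2 1.42.0 and limma 3.58.1 (voom) were alternatives, with other scalings, filters, thinning to 598084 counts, 1 name per set, and each library left out. Log ratios used 0.5 reads added. Arms needed a median of 10 reads. Intervals are 95%. The limit of 3 reads for a count of 0 covers counting error only, since reads carry no molecular identifiers. The 42 pairs of libraries within a season were compared by chi-square; 0 pairs were identical, and chi-square over degrees of freedom was at least 42.2, so each counted as a replicate. The series states separate biological samples, so p-values measure the spread between fish.

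A batch label from 1 to 7 equals the fish number in both collections, which are different fish. Because the labels use the word batch, the number was taken to pair the collections in an alternative fit with the number as a block. The main tests compared the seasons without this pairing. Deviations of same-numbered libraries from their season means correlated at a median of 0.60 (-0.37 to 0.76), over 0.1 in 4 of 7 pairs.

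Named miRNAs were up to 12 per direction past the threshold with a mean of at least 10 CPM, the 10 most abundant, the most abundant of each list, and the lowest p up to 5 per direction. The others were named after their values were seen. Members and lists were chosen with earlier results of these data known. No sequence was used.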

Additional observations from a re-analysis of the deposited data

Results flagged for a closer look

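In groups of 7 fish, a library was marked where its distance to the next was large against the range of its group. For normally distributed values chance does this in about 1 in 20 groups. Normalised CPM entered without logs, and the number of marks was not set against that rate. Summer fish 4, the shallowest library, was marked 9 times. It had 241 names with at least 10 reads. Its normalised CPM was 23.8 for miR-26d-5p, 28706 for let-7a, 86.4 for miR-462b-5p, 30902 for miR-462, 7239 for miR-126-5p and 3956 for miR-375 as the highest summer value, and 170 for miR-24a and 581 for miR-451 as the lowest. Summer fish 2 was highest for miR-2188-5p (60734), miR-183 (2100) and miR-100b-5p (120, against 9.31 in the next summer fish). Winter fish 4 was highest for miR-21 (31339), miR-31-5p (5.20) and miR-375 (3578), winter fish 2 for miR-26d-5p (67.3) and miR-27b (16862), and winter fish 6 for miR-2188-5p (30453).

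The seasonal change of gills differed from that of skin, by the edgeR interaction test, for miR-20b (4.20), miR-20b-5p (3.99), miR-26d-5p (-1.87) and miR-31-5p (-3.02). Against muscle it differed for miR-20b (5.25), miR-20b-5p (4.23), miR-100a-5p (-1.83), miR-15e-5p (-2.18), miR-100-5p (-1.76), miR-99 (-1.41) and miR-99-5p (-1.16), all on the log2 scale as gills minus the other tissue. Muscle had 0 to 4 reads of miR-20b and miR-20b-5p in a library, so these 2 differences rest on the change of gills. Gill counts of miR-100a-5p and miR-100-5p were nearly the same, so their differences are not separate results. With fish as a block miR-99-5p did not pass (edgeR adjusted p = 0.0627).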

How the results depend on the processing

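The 1 name past the threshold became 6 names in 4 sets with DESeq2 (1 higher, 5 lower). With limma voom it became 12 names in 7 sets (2 higher, 10 lower). With no filter 6 passed, and with all 42 libraries also 6 (4 higher and 2 lower in each). Without both libraries of the lowest totals 4 passed (3 higher). There were 2 with 1 name per set (1 higher), 2 with the replicate block (2 lower) and 0 after thinning. After thinning 23 had an unadjusted p under 0.05. Leaving out 1 library gave 0 to 4 names, 0 to 3 higher and 0 to 2 lower. In all these fits with fewer libraries, any higher names were miR-20b and miR-20b-5p, joined in some by miR-31-5p. miR-20b and miR-20b-5p had nearly the same gill counts and passed the filter through summer libraries alone. Their calls are thus no separate support. In the edgeR fit of gills, the whole-library measures and the arm balance, the block changed no call other than adding miR-100b-5p. For the arm balance the block test switched signs within same-numbered pairs, and its smallest possible p was 0.0156. After adjustment over 45 precursors a single precursor could not pass, so the block was no check there. The ratios to an abundant relative were not tested with the batch number. Against muscle, 5 names passed with totals only, 9 with fish as a block and 14 (6 higher, 8 lower) without both libraries of the lowest totals, in place of 10 (2 higher, 8 lower). That scaling moved the median of all names by -0.12.
Names with at least 10 reads differed by -13.3 with 10 CPM, -10.1 after thinning and 19.7 to 68.4 with 1 library left out, the top-10 share by 3.30 to 8.52 and the effective number by -12.5 to -3.53.

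Changes near 0 reversed sign. With totals only miR-451 was -0.087 and miR-218a -0.096. miR-126-5p was 0.0065 with DESeq2, 0.0069 with RLE scaling, 0.012 with all 42 libraries, 0.059 with the 10 CPM filter and 0.045 thinned. In the same order miR-199 was 0.036, 0.040, 0.066, 0.077 and 0.112, and 0.022 with no filter. In that order miR-375 was 0.057, 0.057, 0.041, 0.125 and 0.079, and 0.036 with no filter. miR-192 was 2.48 with voom, 2.45 with the replicate block, 0.040 thinned and 0.027 with all 42 libraries. With 1 library left out the changes ran over -0.058 to 0.259 for miR-451, -0.249 to 0.071 for miR-126-5p, -0.043 to 0.063 for miR-199, -0.050 to 0.096 for miR-218a, -0.023 to 0.658 for miR-183, -0.293 to 0.2498 for miR-375 and -0.486 to 1.09 for miR-192. The cause was not tested.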

Other observations

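miR-192, abundant in intestine, kidney and liver of mammals, had the largest spread within a season among the 178 sets with a mean of at least 10 normalised CPM. It had 61.6, 687 and 1976 normalised CPM in summer (lowest, median and highest) and 15.3, 26.3 and 3558 in winter. In winter, fish 1 and 5 had 3558 and 2090 and the other 5 had 41.6 or less. miR-122, a liver miRNA of vertebrates, had 27.5 and 13.3 normalised CPM in winter fish 1 and 5 and at most 1.66 in the other 5. miR-8159-5p, for which no role is given, had 114 and 75.0 in the same 2 libraries and at most 20.8 in the others of that season. miR-194, which shares a precursor cluster with miR-192 in vertebrates, had 19.7 and 10.97 in them and at most 0.831 in the rest. In summer the highest values of miR-192, miR-122, miR-194 and miR-8159-5p were all in fish 1, at 1976, 16.8, 10.5 and 65.0. Summer minus winter, miR-192 differed by -0.06 ± 1.21 (edgeR adjusted p = 0.998), and what goes with the spread among fish was not tested.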
